A study of Mus musculus with 2 samples.

Results

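Homeodomain factors of regional identity are transcription factors whose DNA-binding homeodomain reads short AT-rich sites and whose place of expression marks the region a cell comes from. The set was chosen by gene symbol, with no measured value, and takes the Hox clusters together with the Dlx, Lhx, Lmx, Isl, Emx, Otx, Pax, Nkx, Pou, Meis, Pbx, Irx, Cux, Satb, Zfhx and Tshz families and the sine oculis family. It holds 128 of the 55536 annotated genes. A few of its Pax genes encode a paired domain and no homeodomain, and the Tshz and Satb proteins carry a homeodomain of divergent sequence. All were kept, since the symbol was the only criterion.

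Levels were read in total RNA of the hippocampus from female mice of the strain B6CASTF1/J, the first-generation hybrid of C57BL/6J and CAST/EiJ, aged 2 months. There was 1 group of 2 libraries, each from 300 ng of RNA with ERCC spike-ins added. The labels name no treatment and no altered allele, and give the tissue as layer of hippocampus without saying which layer. The labels number the libraries as biological replicates 1 and 2 and list the same donor record for both, so whether they came from separate animals is not stated and their spread may be partly technical. Reads were not split by parental allele. Annotated genes held 29490900 and 30691917 expected counts in replicates 1 and 2. With a single group there was no contrast and no p-value, and each value is given per library or as mean ± SD (n = 2).

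As background, Hox genes give position along the axis behind the forebrain and are held silent in forebrain cells by Polycomb proteins. Emx2, Lhx2 and Pax6 pattern the cortical primordium from which the hippocampus arises, whereas Dlx genes, Lhx6 and Nkx2-1 belong to the ventral forebrain that sends inhibitory interneurons into it. Pbx and Meis proteins bind DNA beside other homeodomain proteins, and POU factors join a homeodomain to a second DNA-binding domain.

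Of the 128 members, 38 (29.7%) reached 1 TPM or more in both libraries, here called detected. TPM is the share of transcripts after correction for length, scaled to a fixed library total. Over all 22028 protein-coding genes 12786 (58%) were detected. Another 39 members had at least 1 count in a library but stayed below detection, and 51 (39.8%) had 0 counts in both libraries, against 4634 protein-coding genes (21%). A count of 0 allows up to 3 counts, or 0.102 and 0.0977 CPM (counts scaled to 1 common library total) in replicates 1 and 2, for counting error only. In a second quantification that the authors deposited, 32 members had 0 counts, and 8 of the 51 exceeded 3 estimated counts in both libraries. The median level of the detected members was 6.88 ± 0.523 TPM, and that of all detected protein-coding genes was 14.6 ± 0.00707 TPM. In bulk tissue a gene that is low in all cells and a gene that is high in few cells cannot be told apart, so fewer cells of a type and less RNA per cell read alike.

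Levels among the detected members differed widely, with Pou6f1 at 42.39 ± 1.48 TPM, Lhx2 at 36.99 ± 1.03 TPM and Six5 at 1.07 ± 0.0141 TPM. Above 10 TPM stood 14 members, 10 lay between 5 and 10 TPM and 14 between 1 and 5 TPM. The 10 highest held 64.0% ± 0.704 of the summed level of all members. Of the 37 pairs of neighbours in this order, 15 were separated in both libraries and 22 overlapped. Pou6f1, Lhx2 and Satb1 each stood clear of the next lower gene, whereas Pbx2, Zfhx2 and Pou3f3 overlapped. The highest member outside the detected set was Pou5f2 at 0.695 TPM on average, and the lowest inside it was Six5.

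**Figure D1:**
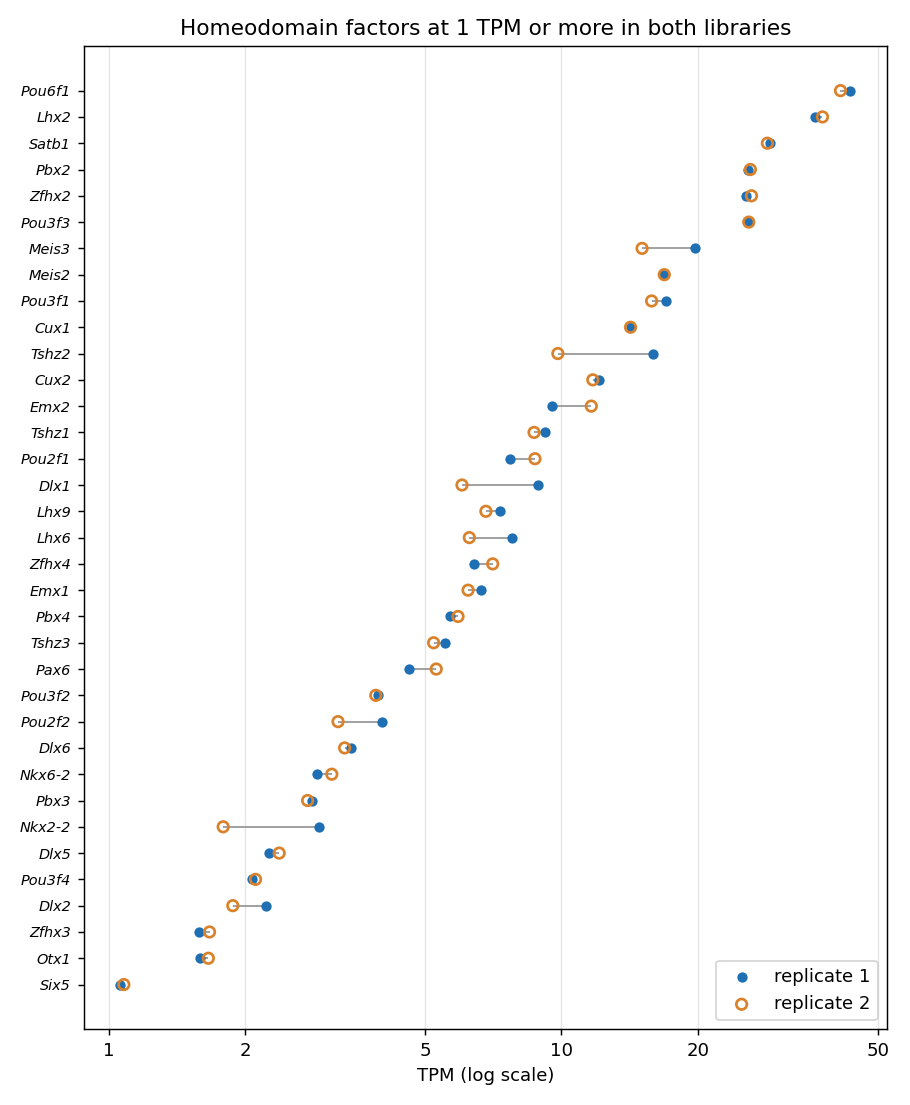
Level of 35 detected homeodomain factors in TPM (log scale), with a filled point for replicate 1 and an open point for replicate 2, joined by a line. Pou6f1 is at 43.44 and 41.34 TPM, and the widest gap in TPM is that of Tshz2, at 15.92 and 9.82 TPM.

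The DNA that encodes the recognition helix of the homeodomain shows what these genes share and where the families part. The core of that helix reads tryptophan, phenylalanine, any residue, asparagine, any residue, arginine, and the variable residue after phenylalanine is known to steer which base next to the core site is preferred. The 60-base coding stretches below show 5 genes with different variable residues, followed by 3 glutamine genes that differ in level. The 18 bases of the core are in capitals.
Meis3: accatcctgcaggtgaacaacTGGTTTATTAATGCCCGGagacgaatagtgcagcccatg
Cux1: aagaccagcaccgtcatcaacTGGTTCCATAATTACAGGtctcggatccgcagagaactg
Pou3f3: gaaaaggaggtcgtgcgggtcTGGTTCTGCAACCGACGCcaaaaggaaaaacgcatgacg
Pax6: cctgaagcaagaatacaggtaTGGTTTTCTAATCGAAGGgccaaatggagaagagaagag
Otx1: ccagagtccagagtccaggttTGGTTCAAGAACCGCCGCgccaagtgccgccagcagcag
Lhx2: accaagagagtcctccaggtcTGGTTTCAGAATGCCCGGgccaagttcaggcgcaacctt
Emx2: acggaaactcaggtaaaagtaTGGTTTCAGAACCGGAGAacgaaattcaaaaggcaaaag
Hoxa5: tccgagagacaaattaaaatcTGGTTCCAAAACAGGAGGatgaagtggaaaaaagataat
These bases were read from GENCODE M21 transcripts on mm10, at chr7:16183845-16184074 (plus strand) for Meis3, chr5:136275445-136279467 (minus) for Cux1, chr1:42698472-42698531 (plus) for Pou3f3 and chr2:105692259-105692511 (plus) for Pax6. The Otx1 stretch lay at chr11:21997017-21998387 (minus), that of Lhx2 at chr2:38360086-38368883 (plus), that of Emx2 at chr19:59461835-59463927 (plus) and that of Hoxa5 at chr6:52202632-52202691 (minus). Those of Pou3f3 and Hoxa5 lay in a single exon and the other 6 run across an intron, which the spliced sequence leaves out.

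The core was found in a coding sequence of 117 of the 128 members and of 33 of the 38 detected ones. Glutamine was the variable residue in 76 members, all 39 Hox genes among them. Of these, 14 were detected and 42 had 0 counts. Histidine was the residue in the 2 Cux genes, both detected. Isoleucine marked the 3 Meis genes (2 detected), cysteine 14 POU genes (8 detected) and lysine 8 genes, those of the Otx and sine oculis families (2 detected). Serine marked 4 Pax genes (1 detected) and alanine the 6 Irx genes (0 detected). The split follows the families, so it adds no count independent of them.

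The TALE genes encode partners of other homeodomain proteins. Pbx2 was at 25.80 and 26.14 TPM, Pbx4 at 5.68 and 5.91 TPM, and Pbx3 at 2.81 and 2.75 TPM. These 3 kept their order in both libraries. The expected counts of Pbx2, 1199.84 and 1149.48, were not whole, which shows that some reads were shared out with other annotated sequence. Meis3 was at 19.68 and 15.07 TPM, which lay around the 16.82 and 16.87 TPM of Meis2. Meis1 was at 0.62 and 0.74 TPM, below detection. Together the Meis genes reached 34.9 ± 3.14 TPM.

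Among LIM homeodomain genes, which act through LDB adaptor proteins, Lhx2 was dominant. Lhx2, a selector of cortical and hippocampal identity on chromosome 2 (38339281 to 38369733, plus strand), was at 36.26 and 37.72 TPM. Lhx9, a close relative of Lhx2, was at 7.32 and 6.81 TPM, and Lhx6, a factor of interneurons from the medial ganglionic eminence, at 7.79 and 6.26 TPM. These 2 genes overlapped each other. The other 5 Lhx genes were below detection: Lhx1 had 15 and 11 counts, Lhx5 had 2 and 8, Lhx3 had 5 and 0, Lhx4 had 1 in each and Lhx8, a factor of basal forebrain cholinergic neurons, had 0. Isl1 had 0 counts in both libraries and Isl2 had 0 and 1. Lmx1a had 3 and 9 counts and Lmx1b had 5 and 6.

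POU genes held the largest summed level of any family, 104.7 ± 2.40 TPM, with 8 of 15 detected. Pou6f1, on chromosome 15 (100575318 to 100599984, minus strand), was at 43.44 and 41.34 TPM, above 82.1% of detected protein-coding genes. The class III genes, single-exon neural factors also known as Brn genes, differed widely. Pou3f3 was at 25.82 and 25.93 TPM, Pou3f1 at 17.05 and 15.82, Pou3f2 at 3.94 and 3.89 and Pou3f4 at 2.07 and 2.11. No 2 of these 4 overlapped. Pou2f1, a broadly expressed octamer-binding factor, was at 7.71 and 8.74 TPM, and Pou2f2 was at 4.01 and 3.21 TPM. Pou4f1, a factor of sensory and habenular neurons, had 4 and 0 counts, and Pou1f1, the pituitary factor, Pou4f2 and Pou4f3 had 0.

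Satb1, an organizer of chromatin loops, was at 28.87 and 28.50 TPM. Of the Cux genes, known for the upper layers of the cortex, Cux1 was at 14.28 and 14.21 TPM and Cux2 at 12.11 and 11.73 TPM. The libraries of each Cux gene lay closer together than the distance to its paralogue.

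The zinc-finger homeodomain genes Zfhx2 to Zfhx4 and Tshz1 to Tshz3 were all detected. Zfhx2 was at 25.56 and 26.29 TPM, Zfhx4 at 6.41 and 7.05, and Zfhx3, a regulator of clock neurons, at 1.58 and 1.67. Zfhx3 is long, so its low TPM rested on 508 and 529 counts. Tshz2 was at 15.92 and 9.82 TPM, Tshz1 at 9.19 and 8.70 and Tshz3 at 5.53 and 5.22. Tshz2 was the least repeatable of the 6.

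Of the genes of the dorsal forebrain, Emx2 was at 9.55 and 11.64 TPM and Emx1 at 6.64 and 6.22 TPM. Emx2, required for growth of the hippocampus, lies on chromosome 19 (59458372 to 59465357, plus strand). Its TPM was higher in replicate 2 although its counts were 550 and 535. By construction TPM also depends on the length of the transcripts to which counts were assigned. The transcript with the core held 87.7% and 60.6% of the TPM of Emx2. The part of transcript length in this difference was not tested. Pax6, a factor of cortical progenitors, was at 4.61 and 5.29 TPM, and was the 1 detected gene of 9 Pax genes. Both Pax6 values lay below their deposited intervals, 5.39 to 7.81 and 6.04 to 8.78 TPM, and the second quantification gave 12.3 TPM. Otx1 was at 1.59 and 1.66 TPM, whereas Otx2, which marks choroid plexus and midbrain in the adult, had 17 counts in each library and 0.38 TPM.

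Of the ventral forebrain genes, Dlx1 was at 8.88 and 6.03 TPM, Dlx6 at 3.43 and 3.32, Dlx5 at 2.26 and 2.38 and Dlx2 at 2.23 and 1.88. These 4 are the Dlx genes of interneurons, and Dlx3 and Dlx4 had 1 count between the libraries each. Nkx2-1, which specifies the medial ganglionic eminence, had 9 and 10 counts. Of 14 Nkx genes 2 were detected, both known from oligodendrocytes. Nkx6-2 was at 2.88 and 3.11 TPM and Nkx2-2 at 2.91 and 1.79 TPM. Nkx1-1, Nkx2-3, Nkx2-4, Nkx2-5, Nkx2-6 and Nkx3-2 had 0 counts.

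Families of eye, placode, limb and axial development were near or at the limit. Six5 was at 1.06 and 1.08 TPM, the 1 detected gene of the 6 in the sine oculis family. Six4 had 62 and 44 counts but only 0.45 and 0.30 TPM, and Six6, an eye factor, had 0 counts. Irx1 had the highest mean of the 6 Irx genes, at 0.42 and 0.18 TPM, although Irx2 was above it in replicate 2 at 0.21 TPM, and Irx4 had 0 counts. Pax3, Pax7, Pax8 and Pax9 had 0 counts, and Pax2 had 14 and 8.

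No Hox gene was detected. All 39 together held 3 counts in replicate 1 and 8 in replicate 2, out of 37926.2 and 37742 counts on the whole set. The 11 genes of the Hoxa cluster (chromosome 6, 52155590 to 52260880) held 2 and 1 counts, all on Hoxa7. The 10 Hoxb genes (chromosome 11, 96194316 to 96368256) held 0 and 1, on Hoxb4. The 9 Hoxc genes (chromosome 15, 102921103 to 103036852) held 0 and 0. The 9 Hoxd genes (chromosome 2, 74668310 to 74765142) held 1 and 6, with 0 and 4 on Hoxd1, 1 and 1 on Hoxd8 and 0 and 1 on Hoxd3. Thus 34 of 39 Hox genes had 0 counts in both libraries, and so did 17 of the other 89 members. In the second quantification the Hox genes together held 80.9 and 85.3 estimated counts, and 6 of these 34 had over 3 in both libraries, such as Hoxc9 with 16.8 and 14.2.

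**Figure D2:**
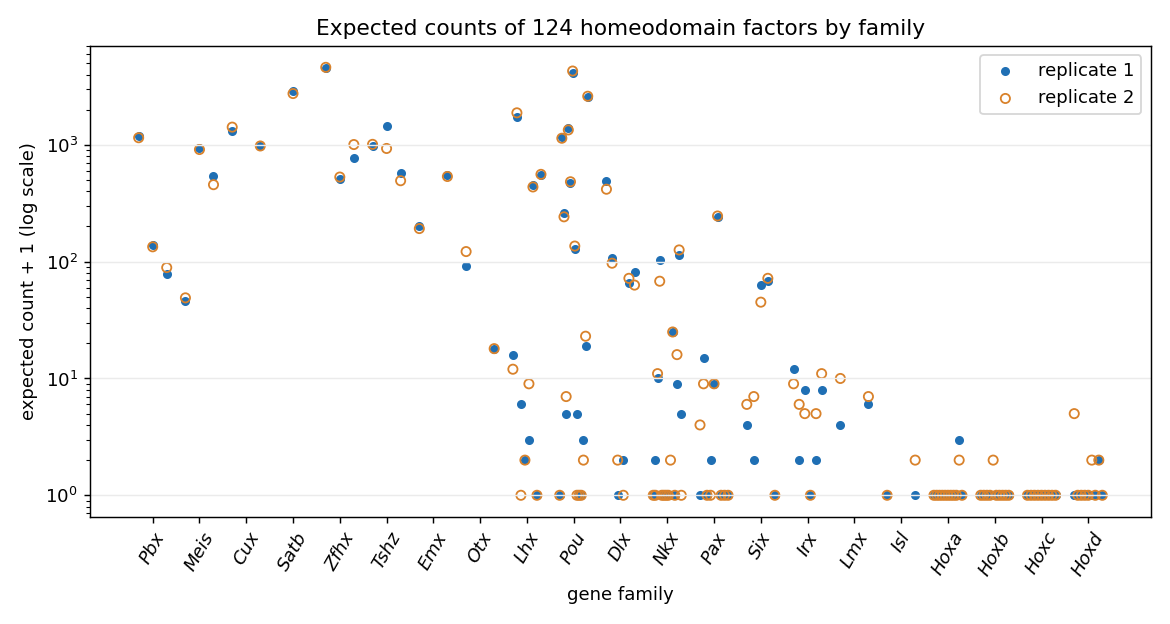
Expected count plus 1 (log scale) of 124 members by family, filled for replicate 1 and open for replicate 2, with genes of a family spread sideways for legibility. The Cux, Zfhx, Tshz and Emx genes sit well above the floor, while no Hox gene exceeds 4 counts.

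A high density of CpG dinucleotides at the start of a gene is common in genes used in many tissues and is also known at developmental genes that Polycomb silences. The data allowed the level of each gene to be set beside that density. To show it, the promoter windows of an abundant and of a silent member are given, from 250 bases before to 50 bases after the start, with each CG in capitals.
Pou3f3: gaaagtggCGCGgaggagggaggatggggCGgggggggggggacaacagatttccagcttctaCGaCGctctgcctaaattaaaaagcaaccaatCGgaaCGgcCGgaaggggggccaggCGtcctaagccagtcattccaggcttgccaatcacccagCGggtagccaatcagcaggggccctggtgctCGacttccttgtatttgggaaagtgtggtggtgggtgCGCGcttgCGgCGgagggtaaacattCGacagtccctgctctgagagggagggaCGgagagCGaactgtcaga
Hoxa5: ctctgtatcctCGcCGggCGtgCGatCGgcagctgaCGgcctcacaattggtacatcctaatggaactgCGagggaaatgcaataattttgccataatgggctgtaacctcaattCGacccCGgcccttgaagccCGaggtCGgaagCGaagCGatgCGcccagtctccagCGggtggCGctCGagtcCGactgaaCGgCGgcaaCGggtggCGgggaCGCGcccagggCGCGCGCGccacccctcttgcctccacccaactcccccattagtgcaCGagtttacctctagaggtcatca
The first is chr1:42695518-42695817 (plus strand), with 18 CG, and the second is chr6:52204538-52204837 (minus strand), with 29 CG, both from RefSeq on GRCm38.p6. Pou3f3 was at 25.9 ± 0.0778 TPM, and Hoxa5 had 0 counts. The pair illustrates the marking and does not stand for its classes. Over windows the median was 20.5 CG for detected members and 16.5 for members with 0 counts. Of 16500 protein-coding genes with such a window, 59.8% held 10 or more CG, counted as the letters CG, which read the same on both strands. At least 10 CG were held by 26 of 28 detected members with a window (92.9%), by 25 of 28 with a count below detection (89.3%) and by 23 of 31 with 0 counts (74.2%), and by 85.7% of detected and 6.28% of 0-count protein-coding genes. Windows matched only 87 of 128 members, so this comparison by level is void.

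CG counts over the first 300 bases of the transcript with the longest coding sequence covered all 128 members. By this measure the order of the pair above was the reverse, with 19 CG for Pou3f3 and 14 for Hoxa5. At least 10 CG were present in 33 of 38 detected members (86.8%), in 32 of 39 with a count below detection (82.1%) and in 44 of 51 with 0 counts (86.3%). Over all protein-coding genes the same shares were lower at lower levels, from 84.5% of detected genes to 41.4% of those with a count below detection and 11.1% of those with 0 counts. The median number of CG was 21 for detected members, 21 for those with a count below detection and 16 for those with 0 counts. For protein-coding genes in the same classes it was 21, 8 and 3. The median number was thus lower in members with 0 counts, although the share with 10 or more was not. Among Hox genes 33 of 39 (84.6%) held 10 or more, and among the 17 other members with 0 counts 15 (88.2%) did. The shares describe the annotated sequence and were not tested.

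**Figure D3:**
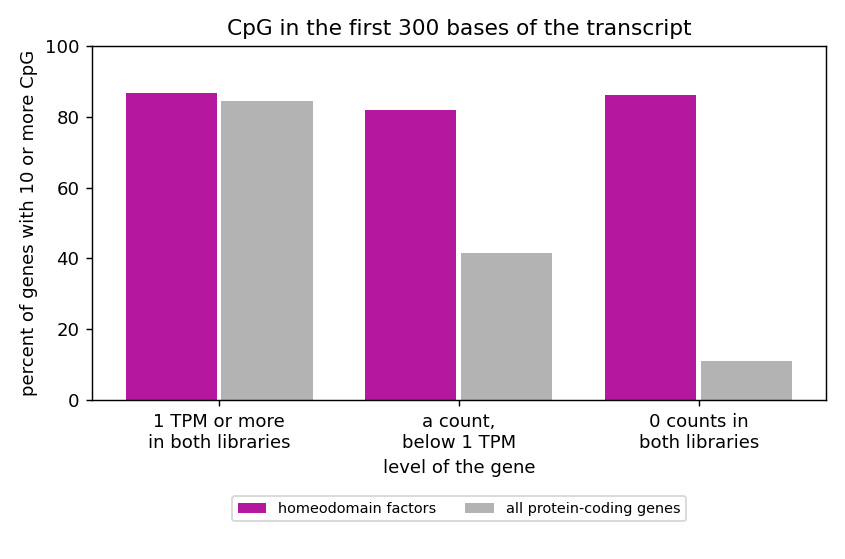
Percent of genes with 10 or more CpG in the first 300 bases of the transcript, for homeodomain factors and all protein-coding genes in 3 classes of level. The bars of the factors stay between 82.1% and 86.8%, while those of all genes run from 84.5% to 11.1%.

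Polycomb genes, which encode the repressors named above, and Trithorax genes, their counterparts in activation, were all expressed. All 18 Polycomb genes were detected, and their median was 18.3 ± 0.757 TPM. The highest were Cbx6 at 133.7 ± 3.30 TPM, Rbbp4 at 46.6 ± 1.20 TPM and Phc2 at 36.0 ± 0.523 TPM. The catalytic subunit Ezh1 was at 30.5 ± 2.02 TPM and its paralogue Ezh2 at 6.68 ± 0.148 TPM. All 7 Trithorax genes were detected, led by Kmt2a at 33.1 ± 2.22 TPM. The share detected among all protein-coding genes was 58%, as above.

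Partners of the detected factors were also present. All 13 genes for LIM and TALE cofactors were detected, and their median was 48.3 ± 2.74 TPM. Ssbp4, a stabilizer of LDB proteins, was at 116 ± 0.219 TPM, Ncor1 at 115.5 ± 4.05 TPM and Lmo4, a LIM-only protein that competes for LDB, at 91.2 ± 1.39 TPM. The adaptor gene Ldb1 itself was at 48.3 ± 2.74 TPM, against 36.99 ± 1.03 TPM of Lhx2. Of 6 genes for partners of sine oculis proteins 5 were detected, led by Eya1 at 11.8 ± 0.764 TPM. All 6 Groucho corepressor genes were detected, led by Aes at 279 ± 6.96 TPM. Beside these lists, 58% of all protein-coding genes were detected and 21% had 0 counts. Of 53 other homeobox genes matched by symbol 13 were detected and 13 had 0 counts. The highest were Zeb2 at 167 ± 1.17 TPM, Zhx3 at 40.7 ± 3.61 TPM and Prox1, the factor of dentate granule cells, at 39.8 ± 5.35 TPM.

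Non-coding genes beside the members were read for the same loci. Within 5000 bases of 90 members, or overlapping them, lay 157 such genes, of which 14 were detected and 91 had 0 counts. Pantr1, 926 bases from Pou3f3 on the opposite strand, was the highest at 50.98 and 47.97 TPM, 1.91-fold the level of Pou3f3. Dlx6os1, an antisense gene also known as Evf2 that overlaps Dlx6, was at 9.46 and 8.57 TPM, 2.67-fold the level of Dlx6. Dlx1as was at 8.82 and 8.19 TPM, and Emx2os at 1.69 and 1.81 TPM. Around the Hox genes lay 40 non-coding genes, of which 0 were detected and 37 had 0 counts, and the highest was Haglr at 0.21 ± 0.0141 TPM. Several of the 40 are annotated as microRNA or miscellaneous RNA. The same shares over all non-coding genes were not taken, so the counts for the 157 and the 40 have no background beside them. The spike-in label speaks of stranded libraries, but whether counting used the strand is not given, so reads of overlapping sense and antisense genes may be mixed.

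Annotated transcripts of many members differ in whether a coding sequence holds the homeobox core, and the transcript values allowed these to be weighed. Transcripts annotated as non-coding or as targets of nonsense-mediated decay were counted apart, whatever sequence they hold. For 17 of the 20 highest members the core occurs in at least 1 annotated coding sequence, Satb1, Tshz2 and Tshz1 being the exceptions. In a median gene of these 17, coding transcripts with the core held 68.0% of the gene's TPM, and the share passed 50% in 11 genes. Of the 17, only Cux1 and Lhx9 had TPM on complete coding transcripts without the core. In the other genes any rest lay on non-coding, decay or incomplete coding transcripts. Pou3f3 and Pou3f1 have a single annotated transcript each. The share of coding transcripts with the core was 87.1% ± 0.0990 for Lhx2 and 89.4% ± 7.12 for Lhx6.

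Cux1 stood at the other end, with 28.3% ± 1.09. Its leading transcript (ENSMUST00000176745.7), of 676 codons and with no homeobox core, was at 7.09 and 6.87 TPM, or 49.0% ± 0.922 of the gene. ENSMUST00000004097.15, of 1426 codons and with the core, was at 1.94 and 2.17 TPM. The shorter form was the higher in both libraries. Complete coding transcripts without the core held 54.7% ± 0.786 of Cux1 in all. By counts, which favour long transcripts, those with the core held 60.6%. The Cux1 locus is known to encode a Golgi protein, CASP, that shares the start of the protein and lacks its homeodomain, and the tables do not name proteins.

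Lhx9 was split evenly by TPM. Transcripts with the core held 45.6% ± 0.125 and complete coding transcripts without it 44.7% ± 4.88. By counts the shares were 36.4% with the core and 59.2% without it. The transcript of 388 codons with the core was at 1.97 and 1.51 TPM, and that of 330 codons without it at 1.68 and 1.77 TPM. These values overlapped. A form of Lhx9 with a truncated homeodomain is known from the literature on this gene.

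For Pou6f1, coding transcripts with the core held 41.0% ± 0.230 of TPM, and retained introns and other non-coding transcripts held 52.9%. By counts the order was the reverse, with 70.4% on transcripts with the core and 23.7% on non-coding ones. Nkx6-2 read almost entirely from ENSMUST00000097974.8, annotated as a target of nonsense-mediated decay, at 97.3% ± 3.85. That transcript has the same 277 codons as the transcript annotated as coding, so the class rests on the annotation. Pbx4, with only 78 and 88 counts, was led by a decay transcript of 86 codons, at 25.9% in replicate 1 and 55.6% in replicate 2. The 378-codon transcript with the core held 3.02% ± 0.214. In the second quantification the decay transcript held 12.8% ± 8.71 and did not lead, and the transcript with the core held 11.0% ± 3.21. The leading transcript was the same in both libraries for 17 of the 20 highest members, of which 2 have a single annotated transcript. It also led in the second quantification for 14 of the 20 and by counts for 17.

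**Figure D4:**
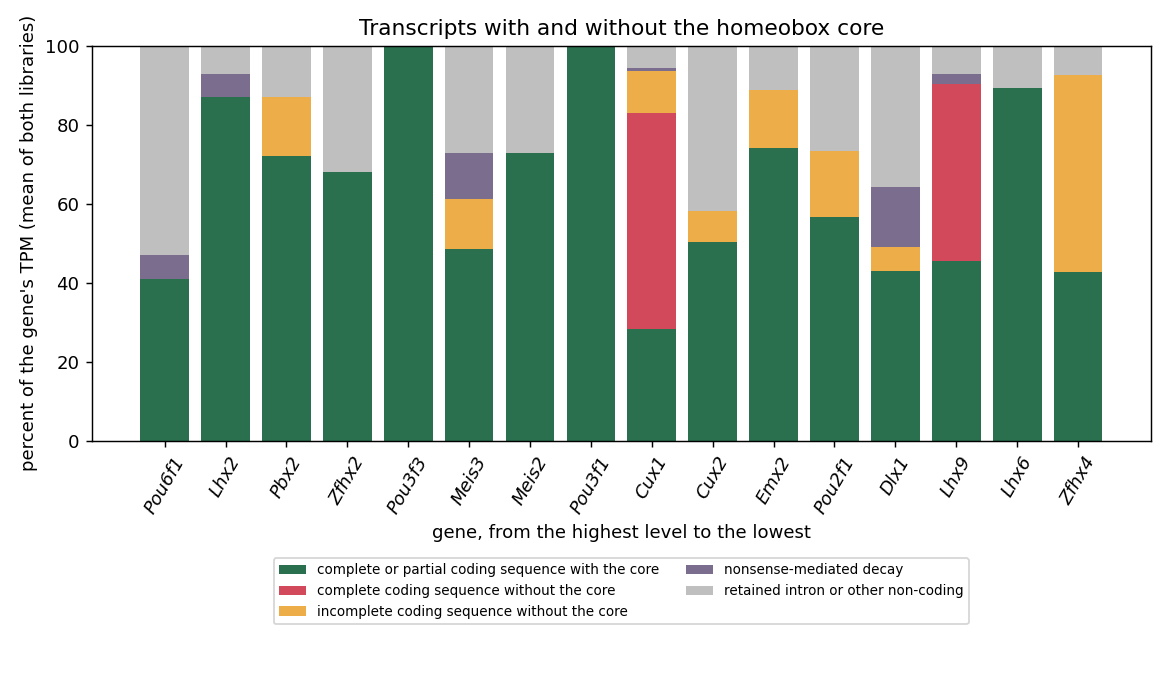
Share of each gene's TPM (percent, mean of both libraries) by class of transcript, for 16 of the 20 highest members, all with the homeobox core in an annotated coding sequence. Cux1 and Lhx9 are the genes with a large share of complete coding transcripts without the core, 54.7% and 44.7%.

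Differences between the libraries were small for most members. The ratio of replicate 2 to replicate 1 was taken on counts scaled by library, for 40 members at a mean of 1 CPM or more, and 88 were too low. No member differed by a log2 ratio of 1 or more, against 0.271% of 15509 genes higher in replicate 2 and 0.258% higher in replicate 1. The median log2 ratio of the 40 was -0.05, and -0.01 over all genes. Without regard to direction, the median size of the ratio was 0.103 for the 40 and 0.0806 over all genes. Within 0.25 lay 31 of the 40, and the same share over all genes was not taken. Of the 40, 28 were lower and 12 higher in replicate 2. Over all genes, 50.8% had a log2 ratio of -0.00435 or less and 47.2% had 0.00165 or more. No p-value can be given, since 1 library was set against 1 library.

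Tshz2 differed most. On chromosome 2 (169633013 to 170071816, plus strand), it had 1458 counts in replicate 1 and 930 in replicate 2, a log2 ratio of -0.71 or 1.64-fold. In the same direction 0.606% of all genes were as far apart. It was also the 1 member whose deposited TPM intervals did not overlap, 14.7 to 16.5 in replicate 1 and 8.95 to 10.4 in replicate 2, which was so for 2.12% of genes higher in replicate 1 and 2.26% higher in replicate 2. Its paralogues did not move as far: Tshz3 had a log2 ratio of -0.28 and Tshz1 of -0.01.

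At a log2 ratio of 0.5 there were 3 members higher in replicate 1, 7.5% of the 40, against 1.84% of all genes, and 0 higher in replicate 2, against 2.19%. The other 2 were Nkx2-2, at -0.67 from 102 and 67 counts, and Six4, at -0.55 from 62 and 44 counts. Both rested on few counts. The largest ratios upward were Otx1 at 0.36, Zfhx4 at 0.32 and Pbx4 at 0.11. Of the Dlx genes, Dlx6 was at -0.45, Dlx1 at -0.29, Dlx2 at -0.22 and Dlx5 at 0.06.

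**Figure D5:**
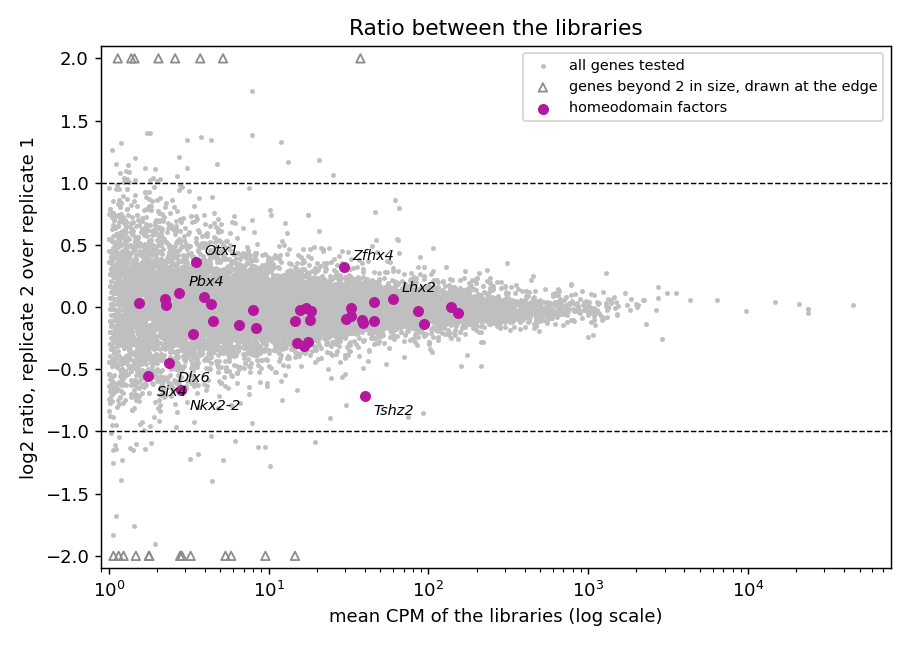
Log2 ratio of replicate 2 over replicate 1 against mean CPM (log scale), with 15509 genes in grey, 37 of the 40 members tested in purple and dashed lines at a log2 ratio of 1 in either direction. The 21 genes beyond 2 in size are triangles at the edge, and Tshz2 at -0.71 is the lowest member point.

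Markers of the cells and neighbouring regions a dissection can hold were read beside these genes. All 9 markers of hippocampal pyramidal and granule neurons were detected, with summed levels of 3152 and 3235 TPM in replicates 1 and 2, and none of these markers was at 0. Beside Tshz2, known from the subiculum and deep cortical layers, 8 of 9 neocortical layer markers were detected, with sums of 143 and 140 TPM. The median log2 ratio over these 9 was 0.01. Of 8 thalamic markers 8 were detected, with sums of 38.4 and 47.1 TPM. Of 5 habenular markers 1 was detected, and of 5 markers of cerebellum and hindbrain 1 was. Beside these lists and those below, 58% of all protein-coding genes were detected. The part of the dissection in the Tshz2 ratio was not tested.

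Beside the Dlx genes and Lhx6, all 4 pan-GABAergic markers were detected, at sums of 328 and 320 TPM, and all 6 markers of interneurons from the medial ganglionic eminence, at 230 and 208 TPM. Of 6 markers of the caudal eminence 5 were detected, at 364 and 356 TPM. The median marker was at 12.6 ± 0.605 TPM in the medial list and 11.7 ± 2.86 TPM in the caudal list. A few genes thus held most of each sum, and the sums do not measure the share of interneurons. Of 9 striatal markers, the region where Dlx genes are also used, 7 were detected, at 78.1 and 80.7 TPM. Beside Nkx2-2 and Nkx6-2, the 4 oligodendrocyte markers summed to 805 and 894 TPM, higher in replicate 2. Beside Otx2, 4 of 12 choroid plexus markers were detected, at sums of 134 and 77.1 TPM, of which Ttr made up 120.94 and 65.68 TPM. Otx2 itself had equal counts. None of the markers in these lists had 0 counts in both libraries, and their part in the levels of the factors was not tested.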

How the data were processed

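Total RNA of 2 hippocampus libraries of 1 group was read from the deposited tables. Per the file headers, the authors gave an expected count and a TPM value per gene and transcript for each library. A deposited score marks the 2 ends of an interval for each gene's TPM, whose level the file does not state. The TPM value can lie outside its interval, as for Pax6. A further deposited transcript table, here the second quantification, gives an estimated count and a TPM value and was summed per gene. Notes with the files name mm10 and the M21 annotation, and the authors' tools are not given in the sources used here. Entries outside annotated genes (spike-ins and tRNA entries) held 0.378% and 0.368% of counts and were left out.

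Expected counts were rounded for edgeR 4.0.16 (with limma 3.58.1, R 4.3.3). The biological coefficient of variation over 15509 genes was 4.97%, with 1 group and no covariates. Ratios used TMM-scaled counts with 0.5 added. Detection needed 1 TPM in both libraries. In simulated data with the same variation for every gene, a log2 shift of 1.5 was called for 98.5% of 200 genes. Of 15294 other genes 6 were called. The real libraries had 42 genes higher in replicate 2 and 40 higher in replicate 1 past the cut, of 15509. The simulation thus does not give the rate of calls in these data. The homeobox core was searched in frame in every annotated coding sequence of the members. Python 3.11.15, pandas 2.3.3, numpy 2.4.6, Biopython 1.88 and matplotlib 3.10.9 were used.

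The members were taken by symbol alone. Earlier results of these data were nevertheless known when the members, gene lists and rule for named genes were chosen. The rule takes the 30 highest members, any other at 1 TPM in a library, the highest of each family, those at 0 counts, the 3 largest ratios in each direction, the Hox genes by cluster and the 3 highest genes of each context list. For several context lists fewer than 3 genes are named. Other genes named were chosen after their values were seen. Drgx and Nkx2-2os found no match, and the symbol Dlx6os1 matched 2 genes, of which the antisense gene is given. Results for some members are not reported here. Alternatives were the second quantification, each library left out, other minimums and pseudocounts, no filter, DESeq2 1.42.0 size factors, unscaled totals and shares of counts.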

Additional observations from a re-analysis of the deposited data

Results flagged for a closer look

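Members with 0 counts in both gene tables were read in the second quantification, which the comparisons do not use, and 8 of them had more than 3 estimated counts in both libraries. The mean estimated counts were 15.5 for Hoxc9, 14.9 for Hoxb1, 12 for Pou1f1, 10.7 for Hoxd11, 8.93 for Hoxd9, 7.57 for Pax3, 4.5 for Hoxc4 and 3.73 for Hoxc8. All 39 Hox genes together held 80.9 and 85.3 estimated counts there, beside 3 and 8 in the gene tables. Of the 51 members at 0 in the gene tables, 31 had no count in the second quantification either. The reason for the difference was not tested.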

How the results depend on the processing

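No paired analysis was possible because the libraries form 1 group. The number of detected members ran from 32 (2 TPM) to 44 (10 counts), and was 39 in the second quantification. Members with 0 counts were 32 in the second quantification, and 57 and 58 with 1 library left out. The median level of detected members was 11.9 TPM in the second quantification, 6.24 to 6.98 TPM with 1 library left out, and 0.045 TPM over all members with no filter. All 38 detected levels were higher in the second quantification, by a median of 1.70-fold, beside 1.71-fold over all detected protein-coding genes. By expected counts, the 10 members with the most counts held 69.4% of the counts on all members. With no filter on low counts 12 members were higher in replicate 2 and 6 in replicate 1 by a log2 ratio of 1, against 5.41% and 4.77% of all genes. At a log2 ratio of 0.5 the count higher in replicate 1 was 3, and by intervals it was 1. The other alternatives left 0 members apart, and the median ratio stayed between -0.04 and -0.07. The median share of TPM on coding transcripts with the core was 53.5% in the second quantification, 88.7% by counts, and 60.6% to 70.8% with 1 library left out. The causes were not tested. Depth limits all members under 3 counts, and with 2 libraries of 1 donor record the SD says little about variation between animals.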
